A study of Mus musculus with 6 samples.

Results

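The genes described here are the ephrin-A5 ligand Efna5, the Eph receptors Epha3, Epha4, Epha5, Epha6, Epha7, Ephb1 and Ephb2, and the B-class ligands Efnb2 and Efnb3, 10 of the 31253 genes counted in droplet single-cell libraries of mouse hippocampus. They were chosen by gene symbol because Efna5 and Epha5 were known to be lower in neuron groups after sevoflurane, so the neuronal values of those 2 genes are given as a description and carry no test. The other 8 genes in neurons, and all 10 in glia, were tested, although the 10 were chosen with earlier results of these data known. The tissue came from old mice, whose strain, sex and exact age are not given in the sources used here. The 3 Control libraries were from mice kept in air, and the 3 Sevoflurane libraries from mice exposed for 6 h to 2% sevoflurane, a volatile agent used for general anaesthesia. Hippocampus was taken 24 h later in both groups, digested with collagenase, frozen, thawed and captured with a 3′ droplet kit in which every captured transcript carries its own barcode (unique molecular identifier, UMI). The labels count 6 mice but do not say which animal gave which library, so every p-value here rests on library-to-library spread, part of which may be technical.

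Eph receptors are membrane receptor tyrosine kinases, and their ephrin ligands are themselves bound to the membrane of a neighbouring cell. A-class ephrins are held by a lipid anchor and mostly engage EphA receptors, whereas B-class ephrins span the membrane and mostly engage EphB receptors, with EphA4 binding ligands of both classes. Binding signals into both cells, and in the brain it is best known for guiding and repelling growing axons, for the layered wiring of the hippocampus, and in the adult for spine shape and synaptic plasticity. Ephrin on astrocytes that meets EphA4 on dendritic spines is a textbook example in CA1.

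Library depth ran from 54426522 to 70741809 UMIs over 7068 to 9795 barcodes, and 46876 cells were kept. No pair of libraries shared more than 0.333% of its barcodes. Cells were grouped by clustering without the 10 genes, and classes were named from fixed markers, each name being short for "like". Neurons made up 28517 cells, of which 9727 were dentate granule, 5628 CA1, 2983 CA3, 4541 retrohippocampal excitatory, 1525 Lhx6 interneurons and 824 Adarb2 interneurons. The glial and vascular classes held 4088 astrocytes, 6884 oligodendrocytes, 1131 oligodendrocyte precursors, 1625 microglia, 647 endothelial and 535 ependymal cells, and 2618 cells in 6 clusters stayed unnamed. Every marker of the glial, endothelial and ependymal classes was highest in its own class, but only 2 of 6 CA1 markers and 2 of 6 retrohippocampal markers were. In the other subtypes it was 3 of 7 markers for granule neurons, 4 of 7 for Lhx6 interneurons and 5 of 7 for both CA3 and Adarb2. The neuron subtype names thus rest on less, most so in CA1, retrohippocampal and granule neurons. The library Sevoflurane 1 stood apart with 1397 CPM (counts scaled to library depth) of Xist over all cells, where no other library exceeded 1.21 CPM, and with 0.282 CPM of Ddx3y against at least 44.1 CPM elsewhere. These levels mark a female animal where the other 5 libraries have male levels, and the called members are also given without it. Neuron clusters 29 and 34 lay almost entirely in Sevoflurane libraries and were kept in the pooled neurons.

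The gene for ephrin-A5 lies at chr17:62604184-62881317 on the minus strand of GRCm38 in GENCODE M21 and spans 277 kb. Epha5 lies at chr5:84054761-84417382 and spans 363 kb, and Epha3 lies at chr16:63543534-63864175 and spans 321 kb, both also on the minus strand. These 3 genes had the lowest fold changes of the 10 in granule neurons, so the 250 bases before their RefSeq starts (GRCm38.p6) are shown, 5′ to 3′ on the gene's strand, ending at the base before the start. Capitals mark the GC box, searched as GGGCGG on both strands. The Efna5 window is chr17:62881318-62881567, the Epha5 window chr5:84417383-84417632 and the Epha3 window chr16:63864176-63864425.
Efna5: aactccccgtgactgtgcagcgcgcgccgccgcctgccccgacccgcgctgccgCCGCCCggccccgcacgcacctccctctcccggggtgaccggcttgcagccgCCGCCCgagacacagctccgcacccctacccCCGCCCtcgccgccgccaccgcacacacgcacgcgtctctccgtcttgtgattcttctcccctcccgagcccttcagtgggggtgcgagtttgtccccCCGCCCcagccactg
Epha5: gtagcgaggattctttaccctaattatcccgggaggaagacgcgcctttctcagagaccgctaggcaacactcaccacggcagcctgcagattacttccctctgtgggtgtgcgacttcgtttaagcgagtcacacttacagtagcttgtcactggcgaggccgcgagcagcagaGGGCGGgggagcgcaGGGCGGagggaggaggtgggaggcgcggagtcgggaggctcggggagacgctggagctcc
Epha3: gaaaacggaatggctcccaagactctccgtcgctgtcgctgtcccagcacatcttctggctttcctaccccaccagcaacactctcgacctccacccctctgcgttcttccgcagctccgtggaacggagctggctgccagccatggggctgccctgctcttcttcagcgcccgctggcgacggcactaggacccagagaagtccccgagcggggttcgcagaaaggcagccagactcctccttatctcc
The Efna5 window held 4 GC boxes, the Epha5 window 2 and the Epha3 window 0, and 32.9% of the 27025 promoters compared, in windows of the same length, held at least 1. CpG dinucleotides numbered 32, 20 and 16 in the Efna5, Epha5 and Epha3 windows, against a median of 6 over all promoters. The other matched members lay above that median too, from 10 CpG and 0 GC boxes for Ephb1 to 27 CpG and 3 GC boxes for Efnb2. None of the 3 windows held the E-box CACGTG, the cAMP response element TGACGTCA or the TATA box TATAAA on either strand, which 6.05%, 1.62% and 13% of all promoters did. RefSeq promoters were matched for 9 of the 10 genes.

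In Control libraries the 10 genes had separate cell-type profiles, given here as CPM with library size factors, mean ± SD over 3 libraries. Levels are compared between classes for a gene and never between genes, because the classes and not the genes share a scale in 3′ counts. The classes come from clusters of the same cells, so no test is given for their order.

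Among the ligands, Efna5 was highest in Lhx6 interneurons, the class that holds somatostatin and parvalbumin cells, at 467 ± 40.6 CPM. Retrohippocampal excitatory neurons followed at 250.1 ± 9.88, Adarb2 interneurons at 118 ± 32.1, CA3 at 79.9 ± 10.6, CA1 at 55.5 ± 10.1 and granule neurons at 42.6 ± 1.5 CPM. The first 2 classes did not overlap with their neighbours, whereas Adarb2 overlapped with CA3. The CA1 level depended on the clustering and was 28.4 CPM at a finer resolution. Outside neurons Efna5 ran from 11.1 ± 2.86 CPM in oligodendrocyte precursors to 39.1 ± 10.6 CPM in microglia. Efnb2, a transmembrane ligand also known from blood vessels, was highest in retrohippocampal neurons at 66.7 ± 5.12 CPM, overlapping with endothelial cells at 56.6 ± 13.4 CPM. Efnb3, a ligand known from myelin and midline glia, was highest in oligodendrocytes at 124 ± 15.3 CPM, 3.29 times the next class, granule neurons.

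Among the A-class receptors, Epha5, a main partner of ephrin-A5, was spread widely over neurons. It ran from 1315 ± 119 CPM in retrohippocampal neurons down to 648 ± 25.9 CPM in Adarb2 interneurons, and the first 4 classes overlapped in sequence. Oligodendrocyte precursors held 677 ± 11.6 CPM of Epha5, between granule neurons and Adarb2 interneurons. Epha6 was highest in CA1 at 6120.1 ± 400.2 CPM, 1.57 times CA3 and 3.74 times granule neurons. Epha7 was highest in granule neurons at 1124 ± 43.8 CPM, 1.98 times CA3. Epha3 was highest in Adarb2 interneurons at 453 ± 84.9 CPM and overlapped with CA3 at 410.5 ± 36.9 CPM. Epha4 was highest in CA3, granule and CA1 neurons, from 572 ± 7.54 to 484 ± 28.3 CPM, with overlapping values between neighbours.

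Of the B-class receptors, Ephb2 was highest in CA3 at 135 ± 23.2 CPM and overlapped with retrohippocampal neurons at 108 ± 9.07 CPM. Ephb1 was highest in oligodendrocytes at 373 ± 58.8 CPM, 1.84 times retrohippocampal neurons and 23.0 times CA1. Within neurons Ephb1 was thus uneven, with 195 ± 31.5 CPM in CA3 and 16.3 ± 1.18 CPM in CA1.

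**Figure D1:**
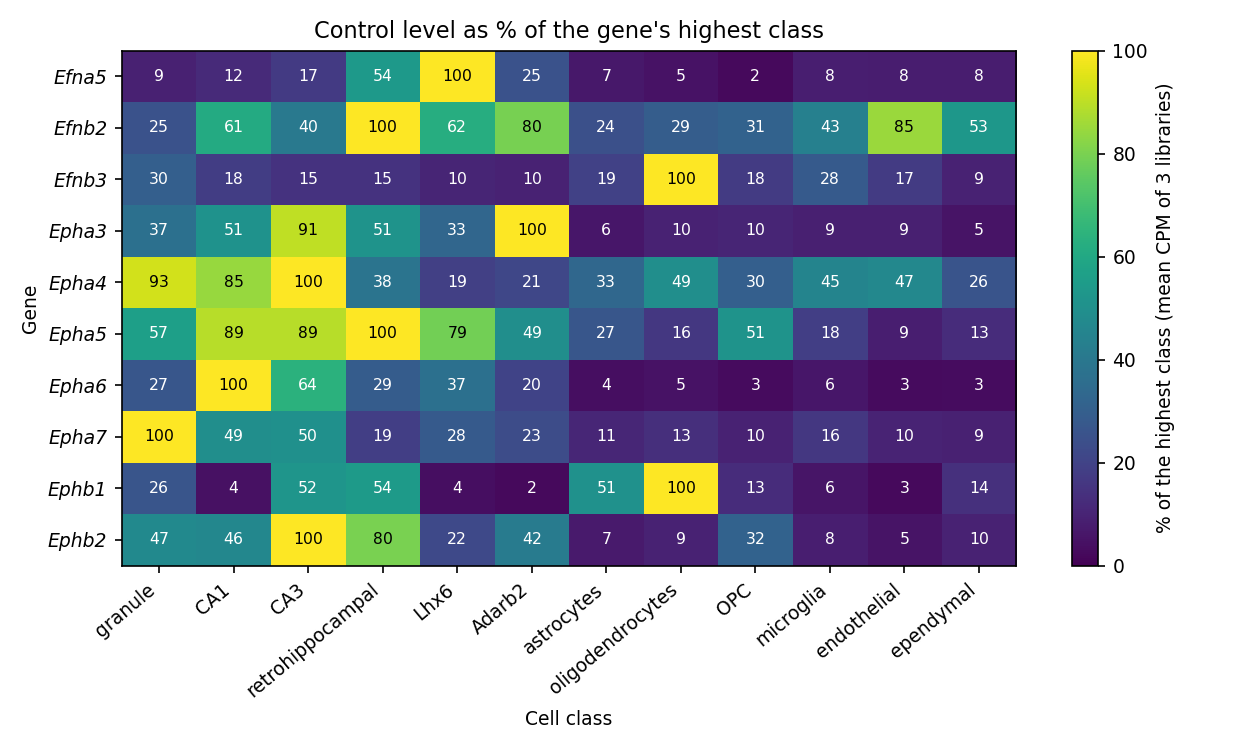
Control level of each gene (rows) in each cell class (columns) as a percentage of the gene's highest class, from mean CPM over 3 Control libraries. OPC stands for oligodendrocyte precursors. Efna5 peaks in Lhx6 interneurons, Epha6 in CA1, Epha7 in granule neurons, and Ephb1 and Efnb3 in oligodendrocytes, while Epha5 stays at 49.3% or more in all 6 neuron subtypes.

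Over these 12 classes, the genes most like Efna5 by Pearson correlation of Control log2(CPM + 5), among 12170 genes, were Rims4, a presynaptic scaffold gene (r = 0.91), 9630002D21Rik, Gm17171, Gm48893 and Cntrob (r = 0.90 each). For Epha5 they were the glutamate receptor gene Grm5 (r = 0.98), the splicing factor gene Rbfox1 (r = 0.97), 1700024B18Rik (r = 0.97), Me3 and Lmtk3 (r = 0.96 each). Of the other members, Epha6 was most like Efna5 (r = 0.64) and Ephb2 most like Epha5 (r = 0.89), and Efna5 and Epha5 had r = 0.55 with each other. These 12 points share libraries and clusters, and are a description.

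After sevoflurane Efna5 stood lower in 4 of the 7 neuron groups with no overlap between libraries: granule neurons, CA3, Lhx6 interneurons and the pool of all neurons. Of all genes in a neuron group, from 8.86% in Adarb2 interneurons to 13.7% in the pool had every Sevoflurane library below every Control library. The genes were chosen on such values, so nothing is read from the counts.

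In Lhx6 interneurons, where its level was highest, Efna5 was at 456, 434 and 512 CPM in the 3 Control libraries and at 258, 277 and 297 CPM in the 3 Sevoflurane libraries (log2 fold change -0.75, SE 0.10). Every Sevoflurane library lay below every Control library. In granule neurons Efna5 was at 43.7, 43.3 and 40.9 CPM in Control and at 24.4, 27.9 and 20.8 CPM in Sevoflurane (log2 fold change -0.81, SE 0.11), again with no overlap. In CA3 the Control values were 89.2, 82.2 and 68.4 CPM and the Sevoflurane values 23.5, 48.5 and 55.1 CPM (log2 fold change -0.92, SE 0.24). Sevoflurane 1 was the lowest CA3 library, and without it the log2 fold change was -0.62.

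The remaining neuron subtypes overlapped. Retrohippocampal neurons held 259, 239.8 and 251 CPM of Efna5 in Control and 162, 265 and 137 CPM in Sevoflurane (log2 fold change -0.42, SE 0.20). Sevoflurane 2 stood above all Control libraries there, and the log2 fold change was -0.74 without it and -0.23 without Sevoflurane 3. In CA1 the Efna5 log2 fold change was -0.27 (SE 0.18), and from -0.09 without Sevoflurane 1 to -0.48 without Sevoflurane 2. It was -0.06 (SE 0.17) in Adarb2 interneurons, where the sign turned when Control 2 (0.20) or Sevoflurane 2 (0.03) was left out. Over all neurons Efna5 was at 146, 121 and 148 CPM in Control and 79.9, 91.2 and 89.1 CPM in Sevoflurane (log2 fold change -0.67, SE 0.09), and -0.54 when each library gave equal numbers of cells of each subtype.

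Epha5, the receptor, stood lower without overlap in 6 of the 7 neuron groups, all but CA3, and the differences were unequal in size. Granule neurons held 719.9, 860.3 and 653 CPM of Epha5 in Control and 382, 371 and 385 CPM in Sevoflurane (log2 fold change -0.97, SE 0.10). The 3 Sevoflurane libraries were close to each other, and all were far below the lowest Control library. In Adarb2 interneurons Epha5 was at 639, 677 and 628 CPM in Control and 406, 472 and 468 CPM in Sevoflurane (log2 fold change -0.53, SE 0.11). In Lhx6 interneurons it was at 1126, 1053 and 926 CPM in Control and 823, 726 and 806 CPM in Sevoflurane (log2 fold change -0.39, SE 0.09).

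Pyramidal and retrohippocampal neurons showed smaller Epha5 differences. CA1 held 1134, 1222 and 1171 CPM in Control and 1034, 993 and 992 CPM in Sevoflurane (log2 fold change -0.22, SE 0.06), and retrohippocampal neurons had a log2 fold change of -0.21 (SE 0.09). With the length trend removed these became -0.07 in CA1 and -0.02 in retrohippocampal neurons, and the latter was -0.13 without Control 2. CA3 overlapped, with 1206, 1022 and 1288 CPM in Control and 1145, 1049 and 987 CPM in Sevoflurane (log2 fold change -0.14, SE 0.09). Over all neurons Epha5 was at 1031, 1094 and 1021 CPM in Control and 856, 778 and 761 CPM in Sevoflurane (log2 fold change -0.39, SE 0.06). Without clusters 29 and 34 the pooled log2 fold changes were -0.39 for Epha5 and -0.80 for Efna5.

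**Figure D2:**
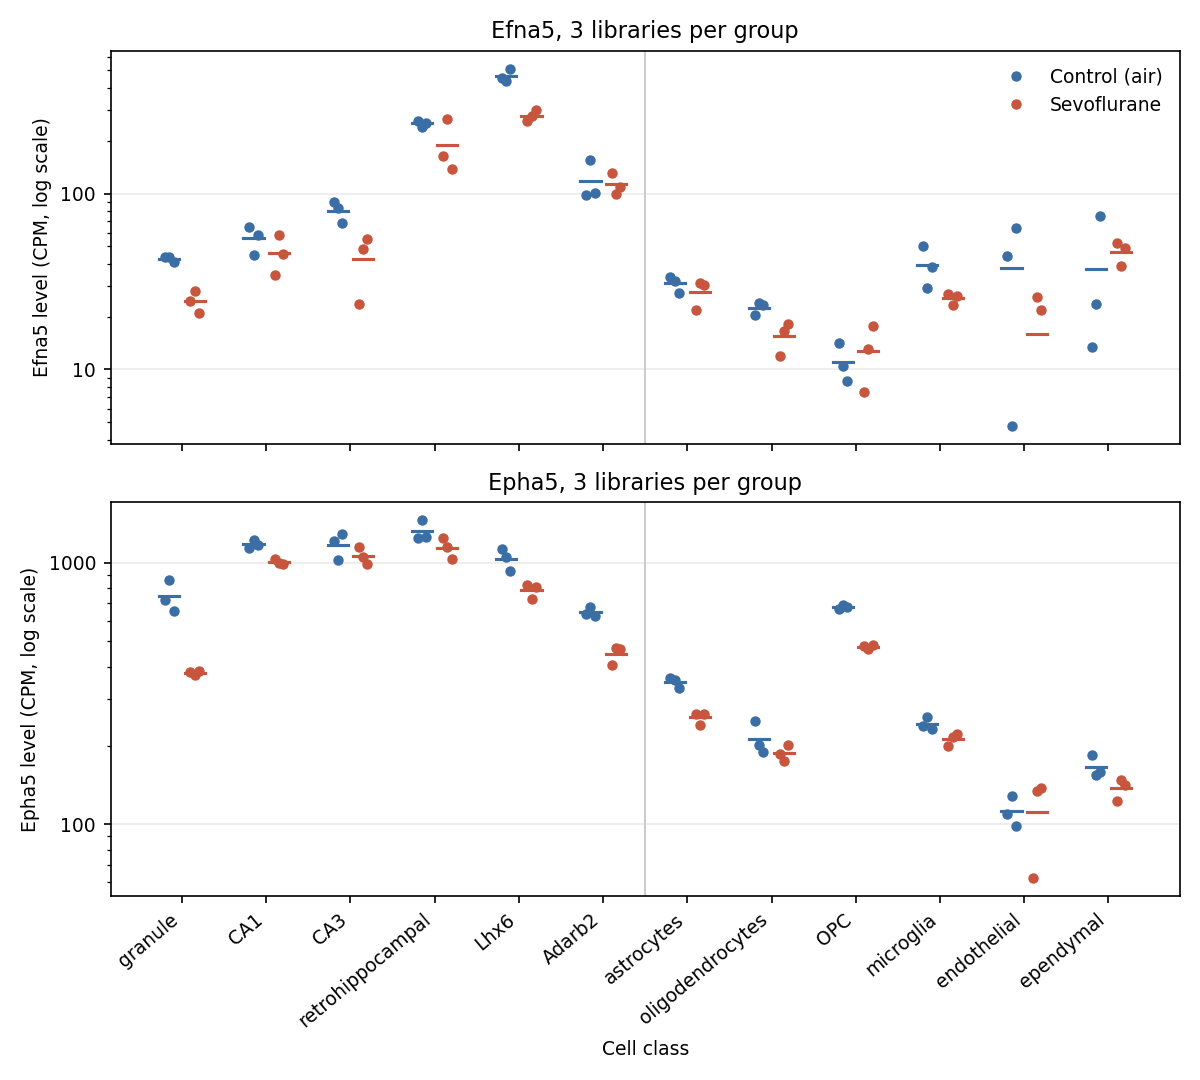
Level of Efna5 (top) and Epha5 (bottom) in CPM on a log scale, by cell class, with a point per library and a line at each group's mean. Each group has 3 libraries, and the Sevoflurane 1 value of Efna5 in endothelial cells is 0 and cannot be drawn. In granule neurons all Sevoflurane points lie below all Control points for both genes, and in CA1 and retrohippocampal neurons the Efna5 points overlap.

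The share of cells with at least 1 UMI, after each cell was thinned to 2000 UMIs, is another reading of the same counts. It was not lower in every subtype. In Adarb2 interneurons the Efna5 share was 13.97 ± 2.06% in Control and 14.02 ± 1.91% in Sevoflurane. In CA1 it was 6.72 ± 1.76% and 6.22 ± 1.52%. The Epha5 share in CA3 was 66.1 ± 4.52% in Control and 69.0 ± 4.64% in Sevoflurane. In Lhx6 interneurons 46.9 ± 2.05% of Control cells and 35.9 ± 3.01% of Sevoflurane cells held an Efna5 UMI (74.4% and 62.7% unthinned, 7 shallower cells left out per group). In endothelial cells, which should hold little of it, the thinned shares were 5.21 ± 3.47% and 2.25 ± 1.95%. They were 7.46 ± 2.44% and 3.56 ± 1.25% in microglia, 5.46 ± 4.69% and 6.18 ± 2.44% in ependymal cells, and 1.71 ± 1.34% and 2.93 ± 0.998% in oligodendrocyte precursors. Granule neurons, at 6.97 ± 1.02% and 4.37 ± 0.452%, were close to the endothelial and microglial shares. Their Control CPM of Efna5 overlapped with microglia, and the part of free RNA in the granule Efna5 values was not tested. For Epha5 in granule neurons the thinned shares were 68.7 ± 3.68% and 51 ± 0.799% (93.3% and 85% unthinned, 67 and 107 cells left out), against 22.1 ± 2.08% and 20.9 ± 7.46% in endothelial cells. Endothelial cells were the lowest non-neuronal class for Epha5. The others ran from 28.4% and 23.2% in ependymal cells, through 36.4% and 30.6% in microglia and 43.2% and 36.7% in astrocytes, to 65.9% and 61.5% in oligodendrocyte precursors. Median depth was 7330.5 and 6708 UMIs in granule neurons and 3254 and 2926 UMIs in endothelial cells, for Control and Sevoflurane. A lower level of a transcript per class cannot be told apart here from a change in the mixture of cells within it.

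Dentate granule neurons, the input cells of the hippocampus, held the most members with a tested change: of the 8 tested genes, the receptors Epha3 and Epha6 and the ligand Efnb2 fell, and none rose. Over all genes in this class, 2.47% of 15469 were called lower and 1.11% higher, a call being an adjusted p under 0.05. Granule neurons lay in 2 clusters of unequal use, cluster 20 with 3384 Control and 2939 Sevoflurane cells and cluster 19 with 866 and 2538, so each called value is also given within them.

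Epha3, a receptor for A-class ephrins, was at 178, 166 and 159.8 CPM in Control granule neurons and at 121, 105 and 96.5 CPM in Sevoflurane. All 3 Sevoflurane libraries were lower, by more than the spread within either group (log2 fold change -0.65, SE 0.09, edgeR adjusted p = 0.00922). The call held without Sevoflurane 1 (-0.74, edgeR adjusted p = 0.00540), with each other library left out, and within cluster 20, at -0.59 (SE 0.09), and cluster 19, at -0.71 (SE 0.10). It was lost when the trend with gene length was removed (-0.46, edgeR adjusted p = 0.0517).

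Epha6, another receptor for A-class ephrins, fell less, from 1649.9, 1697 and 1566 CPM in Control to 1373, 1382 and 1393 CPM in Sevoflurane (log2 fold change -0.24, SE 0.05, edgeR adjusted p = 0.0473). Efnb2 fell from 16.9, 18.1 and 15.7 CPM to 12.6, 12.7 and 11.5 CPM (log2 fold change -0.46, SE 0.10, edgeR adjusted p = 0.0465). For both genes the groups did not overlap. DESeq2 called Epha6 (adjusted p = 0.00837) but not Efnb2 (adjusted p = 0.0621). The Epha6 call was lost at a clustering resolution of 2 (edgeR adjusted p = 0.0590) and with doublets kept (0.0686), and its sign turned with the length trend removed (0.01, edgeR adjusted p = 0.913). That fit also ended the Efnb2 call (edgeR adjusted p = 0.0568). Both calls were lost with any library left out, at edgeR adjusted p from 0.0758 (without Sevoflurane 3) to 0.151 (without Control 1 or Control 2) for Epha6 and from 0.0803 (without Sevoflurane 1) to 0.187 (without Control 2) for Efnb2. Neither was called within a single cluster, where Epha6 differed by -0.19 (SE 0.05) in cluster 20 and -0.24 (SE 0.07) in cluster 19, and Efnb2 by -0.42 (SE 0.12) and -0.17 (SE 0.21). The 12 neuron markers summed to 33407 to 36249 CPM in Control granule neurons and 27936 to 32387 CPM in Sevoflurane, and the part of this shift in the members' values was not tested.

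Epha7, the receptor that was highest in granule neurons, missed the threshold. It was at 1076, 1161 and 1136 CPM in Control and 964, 872 and 956 CPM in Sevoflurane, with no overlap (log2 fold change -0.27, SE 0.06, edgeR adjusted p = 0.0537), and DESeq2 gave an adjusted p of 0.00780. Epha4, which binds both ligand classes, also did not overlap (log2 fold change -0.18, SE 0.07, edgeR adjusted p = 0.207). Efnb3 was at 34.4, 37.5 and 41.2 CPM in Control and 58.2, 46.4 and 41 CPM in Sevoflurane and did not pass (log2 fold change 0.36, SE 0.13, edgeR adjusted p = 0.180). Ephb1 and Ephb2 had log2 fold changes of 0.18 and 0.05 with overlapping groups. Of the 8 tested genes, 5 had all Sevoflurane libraries below all Control libraries, where 12.9% of all genes in granule neurons did. The median log2 fold change of these 8 was -0.21, and that of all genes in the class 0.02. All of the 8 but Efnb2 and Efnb3 span over 100 kb. Genes of 100 to 300 kb had a median of -0.11 in this class and longer genes -0.22. The part of gene length in this contrast was not tested.

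**Figure D3:**
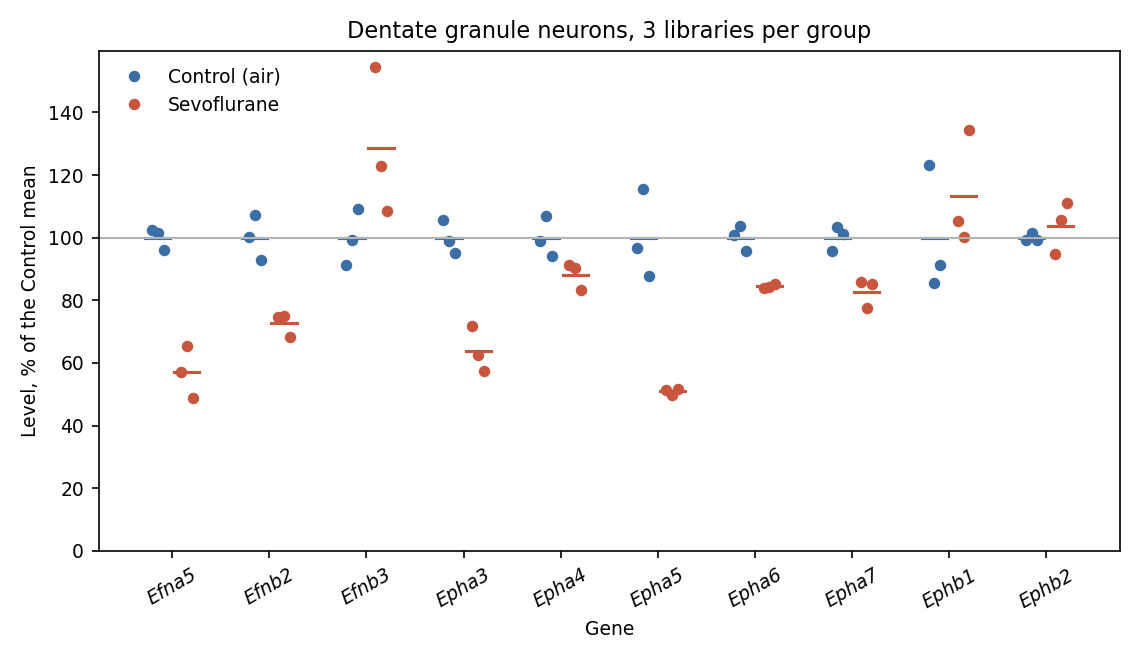
Level of each gene in dentate granule neurons as a percentage of its Control mean, with a point per library and a line at each group's mean (3 libraries per group). The Sevoflurane points of Efna5, Efnb2, Epha3, Epha4, Epha5, Epha6 and Epha7 lie below all Control points, and those of Efnb3, Ephb1 and Ephb2 overlap with Control.

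In the pool of all neurons Epha3 fell from 276, 264 and 273 CPM in Control to 239, 216 and 223 CPM in Sevoflurane (log2 fold change -0.26, SE 0.06, edgeR adjusted p = 0.0481). It was the only called gene of the 8 tested there, and 2.43% of 18801 genes were called lower and 1.49% higher. The call held without Sevoflurane 1 (-0.31, edgeR adjusted p = 0.0426) and was lost without any of the other 5 libraries, at edgeR adjusted p from 0.0924 (without Sevoflurane 3) to 0.148 (without Control 1). It was also lost with equal numbers of each subtype (edgeR adjusted p = 0.0541), at a clustering resolution of 2 (0.0578) and with the length trend removed (-0.08, edgeR adjusted p = 0.510). Efnb2 did not overlap between groups either, with 39.3, 37.9 and 38.3 CPM in Control and 27.6, 32.8 and 32.8 CPM in Sevoflurane (log2 fold change -0.31, SE 0.08, edgeR adjusted p = 0.0736). Efnb3 had a log2 fold change of 0.31 (SE 0.11, edgeR adjusted p = 0.161) and was called higher only without Sevoflurane 3 (edgeR adjusted p = 0.0482). Epha3 and Efnb2 were thus the 2 of these 8 genes with no overlap and lower values, where 13.7% of all genes in the pool were so placed.

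In the main edgeR fit, with all 6 libraries and the filter on low counts, none of the 8 tested genes was called in CA1, CA3, retrohippocampal, Lhx6 or Adarb2 neurons. The shares of all genes called there in either direction were 1.31%, 0.636%, 1.19%, 0.48% and 0.459%. Some alternative edgeR fits did call members in these classes. Over the settings, edgeR or DESeq2 adjusted p ran from 0.00025 to 0.451 for Epha3 in Adarb2 interneurons. In retrohippocampal neurons it ran from 0.0105 to 0.348 for Ephb1 and from 0.033 to 0.522 for Epha3. At an unadjusted p under 0.05, 1 gene was lower in CA1 (Epha6), 2 in CA3 (Ephb1 and Ephb2), 3 in retrohippocampal neurons (Epha3, Epha4 and Ephb1), 0 in Lhx6 and 2 in Adarb2 interneurons (Epha3 and Epha6), and none was higher. Of all genes, 9.73%, 8.74%, 8.62%, 6.5% and 6.11% were lower at that unadjusted level in these classes, in the same order. DESeq2 called 1 gene lower in retrohippocampal neurons (Ephb1, adjusted p = 0.0113), 1 in Adarb2 interneurons (Epha3, adjusted p = 0.00854) and 0 in the other 3. It called 3.12% of 11400 genes lower in retrohippocampal neurons and 7.12% of 1306 in Adarb2 interneurons. These are shares of the genes to which DESeq2 gave an adjusted p, and edgeR tested 14493 and 10236 genes there.

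The largest of these differences not called in the main edgeR fit was that of Epha3 in Adarb2 interneurons, the class where its level was highest. There Epha3 was at 408, 551 and 400.2 CPM in Control and 367, 270.3 and 262 CPM in Sevoflurane (log2 fold change -0.59, SE 0.15, edgeR adjusted p = 0.108), with no overlap. In CA3, where Epha3 was nearly as high, the values were 408, 375 and 448 CPM and 418, 408 and 427 CPM (log2 fold change 0.03, SE 0.08, edgeR adjusted p = 0.918), and the groups overlapped. Ephb1 in retrohippocampal neurons was at 193, 206 and 209 CPM and 150.5, 129 and 172 CPM (log2 fold change -0.43, SE 0.11, edgeR adjusted p = 0.0845), with no overlap. Epha6 in CA1, its highest class, was at 6336, 6366 and 5658 CPM and 5422, 5354 and 5566 CPM (log2 fold change -0.17, SE 0.06, edgeR adjusted p = 0.180), also with no overlap. Of the 8 genes, those with all Sevoflurane libraries below all Control libraries numbered 1 in CA1, 1 in CA3, 3 in retrohippocampal neurons, 0 in Lhx6 and 2 in Adarb2 interneurons, beside 12.5%, 11.4%, 11%, 9.73% and 8.86% of all genes.

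**Figure D4:**
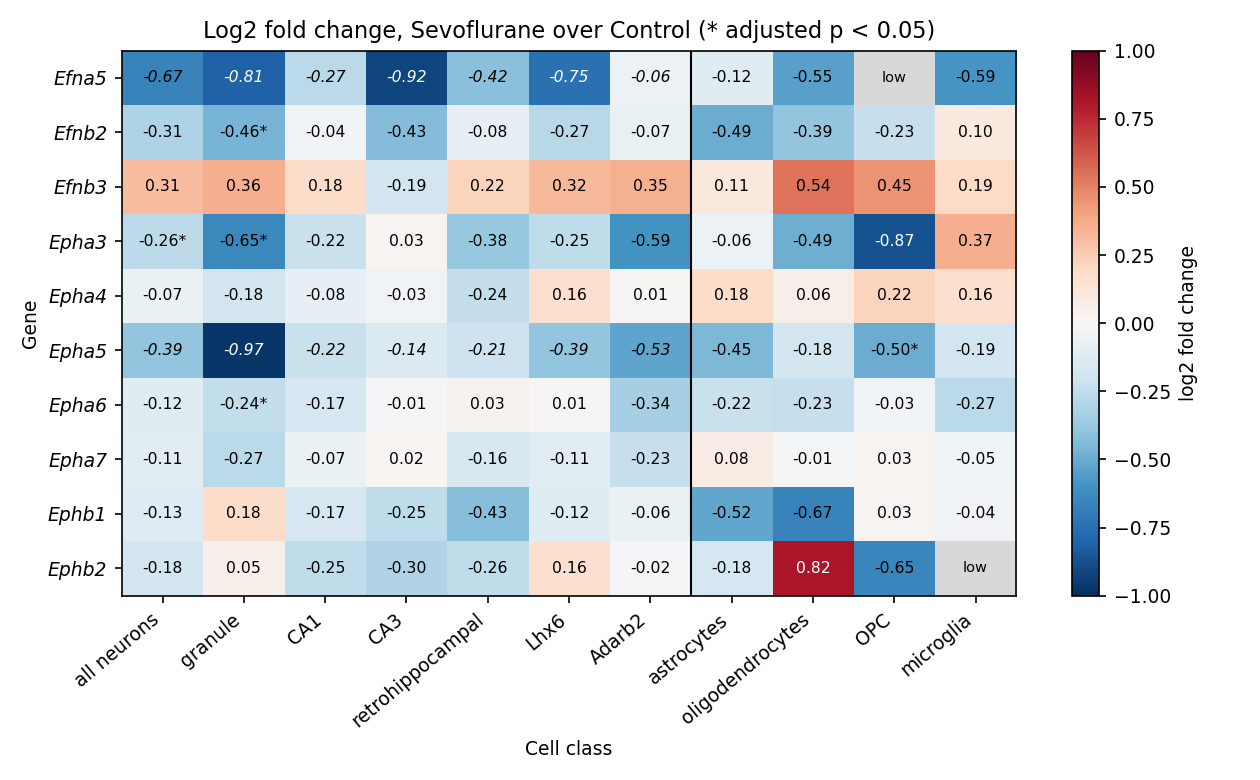
Log2 fold change of each gene (rows), Sevoflurane over Control, in pooled neurons, 6 neuron subtypes and 4 glial classes (columns, glia right of the line). Italic values of Efna5 and Epha5 in neurons have no test, a star marks an edgeR adjusted p under 0.05, and "low" marks a gene that did not pass the filter on low counts. Epha5 is below 0 in all 11 columns, and Efnb3 is above 0 in all but CA3.

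Whether a gene responded differently in 2 classes was tested as an interaction in edgeR, blocking on library, for the 8 genes other than Efna5 and Epha5. None was called between granule and CA1 neurons, where 0.606% of 15837 genes were. An unadjusted p under 0.05 was found for 5 of the 8, and for 10.4% of all genes. The CA1 minus granule effects were 0.23 (SE 0.06, edgeR adjusted p = 0.113) for Epha7, 0.46 (SE 0.13, edgeR adjusted p = 0.159) for Efnb2 and 0.45 (SE 0.16, edgeR adjusted p = 0.311) for Epha3, and were below 0 for Ephb1 and Ephb2. None was called between neurons and astrocytes (1.89% of all genes; 2 members and 11.4% of all genes at an unadjusted p under 0.05) or between neurons and oligodendrocytes (0.519% of all genes; 3 members and 8.39% of all genes at an unadjusted p under 0.05). Ephb1 was called when 1 of 2 libraries was left out: its effect in oligodendrocytes minus that in neurons was -0.53 (SE 0.16, edgeR adjusted p = 0.214) with all libraries, -0.68 without Sevoflurane 1 (edgeR adjusted p = 0.0339) and -0.70 without Control 1 (edgeR adjusted p = 0.0283).

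Oligodendrocyte precursors, the dividing glia that give rise to myelinating cells, held the only call outside neurons among the 10 genes in the main edgeR fit. With no filter on low counts edgeR made further calls in glia, both lower and higher. The Epha5 level in precursors was 667, 689.8 and 674 CPM in the Control libraries and 482, 466 and 485 CPM in the Sevoflurane libraries. The groups were tight and far apart (log2 fold change -0.50, SE 0.11, edgeR adjusted p = 0.0279), and the sums behind them held 2365 Epha5 UMIs in all. Among the 9302 genes tested there 0.817% were called lower and 0.0753% higher. Efna5 did not pass the filter, so 9 of the 10 genes were tested. The call was lost without any library but Sevoflurane 3, at edgeR adjusted p from 0.0589 (without Sevoflurane 1) to 0.158 (without Control 2), and when doublets were kept (0.0748), although the log2 fold change stayed between -0.51 and -0.47 in these. Free RNA was not removed, and the 12 neuron markers, all detected in every library, summed in these cells to 10585 to 11985 CPM in Control and 9543 to 10487 CPM in Sevoflurane, 32.9% of their level in neurons. Epha5 stood at 677 CPM in the Control precursors and 1049 CPM in the Control neurons, and the part of free RNA in its change was not tested.

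The other precursor values did not pass. Epha3 was at 50.6, 44.3 and 47.4 CPM in Control and 21.2, 22.3 and 33.9 CPM in Sevoflurane, from 147 UMIs in all (log2 fold change -0.87, SE 0.26, edgeR adjusted p = 0.119). Ephb2 was at 45.8, 45.6 and 36.6 CPM and 28.6, 30.2 and 23 CPM (log2 fold change -0.65, SE 0.25, edgeR adjusted p = 0.281). With Epha5 these were the 3 precursor genes with all Sevoflurane libraries lower, a placing that 9.21% of all genes shared.

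Astrocytes, oligodendrocytes and microglia had no called member in the main edgeR fit, where 2.02%, 0.634% and 0.335% of all genes were called in either direction. At an unadjusted p under 0.05, 2 genes were lower in astrocytes (Epha5 and Ephb1), 3 lower and 2 higher in oligodendrocytes, and 0 in microglia. Of all genes, 7.99% were lower at that level in astrocytes, 7.6% lower and 5.26% higher in oligodendrocytes, and 8.91% lower or higher in microglia. DESeq2 called Epha5 in astrocytes (adjusted p = 0.0219) and Ephb1 in oligodendrocytes (adjusted p = 0.00499), both lower, and 0 in microglia. It called 2.53% of 6828 genes lower in astrocytes and 1.26% of 9444 in oligodendrocytes. These are shares of the genes to which DESeq2 gave an adjusted p, and edgeR tested 12323 and 12309 genes there. Epha5 in astrocytes was at 363, 357 and 333 CPM in Control and 265, 240.3 and 264 CPM in Sevoflurane (log2 fold change -0.45, SE 0.12, edgeR adjusted p = 0.0648), with no overlap. Together with Ephb1, 2 of the 10 genes had all Sevoflurane astrocyte values lower, beside 10.8% of all genes, and in microglia 2 did (Efna5 and Epha5), beside 7.92%. The neuron markers in astrocytes summed to 5229 to 5853 CPM in Control and 5133 to 5247 CPM in Sevoflurane, 16.7% of their level in neurons. In microglia they summed to 5456 to 6619 CPM in Control and 5208 to 6223 CPM in Sevoflurane, 18.0% of that level. Microglial Efna5 rested on 104 UMIs in all. Efna5 and Epha5 were chosen for their neuronal values, and the part of free RNA in these glial values was not tested.

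In oligodendrocytes, the class where it was highest, Ephb1 was at 323, 438 and 359 CPM in Control and 271, 189 and 242 CPM in Sevoflurane (log2 fold change -0.67, SE 0.15, edgeR adjusted p = 0.0847). The groups did not overlap, and without Sevoflurane 1 the edgeR adjusted p was 0.0468. Over 13 settings the edgeR or DESeq2 adjusted p of Ephb1 ran from 0.000167 to 0.362. Efnb3, which also peaked in this class, was at 121, 111 and 141 CPM in Control and 223, 161 and 152 CPM in Sevoflurane (log2 fold change 0.54, SE 0.15, edgeR adjusted p = 0.183). Sevoflurane 1 was the highest, and without it the log2 fold change was 0.35. Over 13 settings the edgeR or DESeq2 adjusted p of Efnb3 ran from 0.00451 to 0.553. Ephb2 also stood higher in all Sevoflurane libraries, so 2 genes did, beside 7.74% of all genes, and 2 stood lower (Efna5 and Ephb1), beside 10.3%. Neuron markers here summed to 4525 to 5877 CPM in Control and 4460 to 5076 CPM in Sevoflurane, and the part of free RNA in these values was not tested.

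Spans of over 100 kb were held by 8 of the 10 genes, and length moved with the fold change over all genes. Spans ran from 6.11 kb for Efnb3 and 43.8 kb for Efnb2 to 433 kb for Ephb1 and 952 kb for Epha6, against a median of 12.7 kb over the 31184 genes with a span. In granule neurons the median log2 fold change was 0.11 for the 3784 genes up to 10 kb, -0.11 for the 1832 genes between 100 and 300 kb and -0.22 for the 574 longer genes. Of those longest genes 22.0% were called lower, and of the shortest 0.238%. The same order was found in each of the 11 classes tested, with medians from -0.16 to -0.23 for genes over 300 kb.

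With the trend removed within each library, the log2 fold changes in granule neurons were -0.64 for Efna5, -0.78 for Epha5, -0.46 for Epha3, -0.47 for Efnb2 and 0.01 for Epha6. In pooled neurons they were -0.51 for Efna5, -0.20 for Epha5 and -0.08 for Epha3 (edgeR adjusted p = 0.510). Epha5 in oligodendrocyte precursors became -0.30 (edgeR adjusted p = 0.297). No called member kept its call in that fit, and what makes fold changes follow length was not tested.

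**Figure D5:**
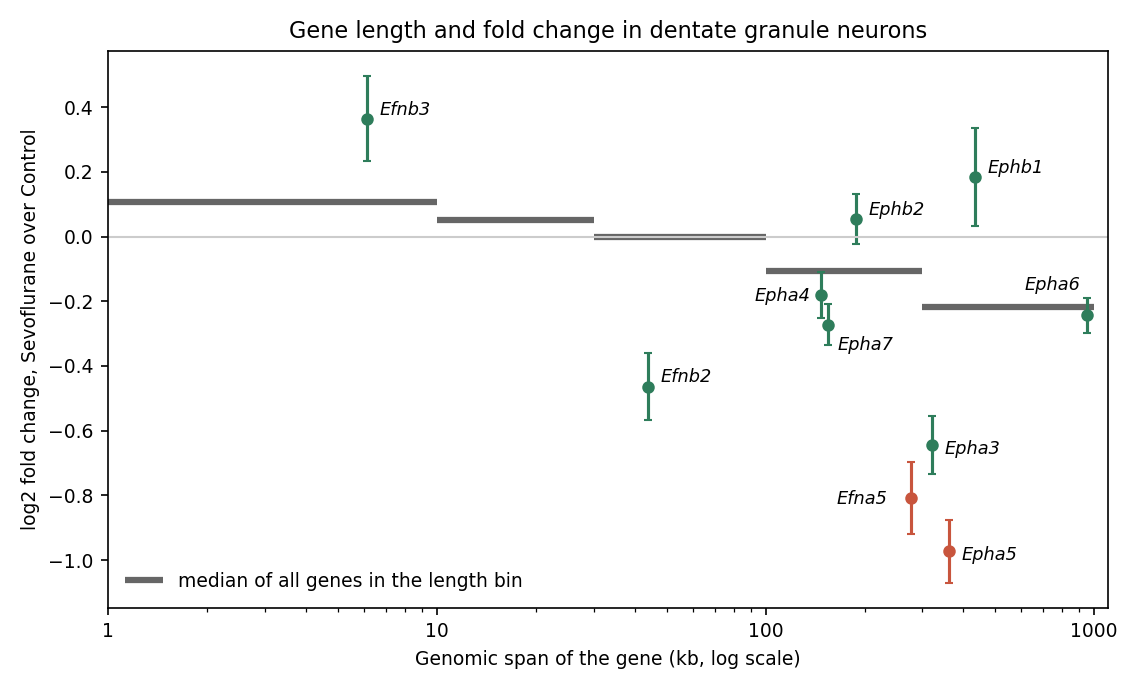
Log2 fold change in dentate granule neurons, Sevoflurane over Control, against the genomic span of the gene in kb on a log scale. Points are the 10 genes with SE bars (red for Efna5 and Epha5), and grey lines are the medians of all genes in bins of length, the last bin holding all genes over 300 kb. Epha3 (-0.65) lies under its line and Epha6 (-0.24) on its line, both in the bin with a median of -0.22. Efna5 (-0.81) and Epha5 (-0.97) are drawn as a description, since they were chosen for lying low.

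The rest of the family was mostly not called. This list and the list of signalling partners were chosen with earlier results of these data known, so their counts are a description. Of 12 other Eph receptors and ephrins, 67 tests over 11 classes gave 0 lower and 1 higher call, against 2 lower and 8 higher at an unadjusted p under 0.05, and DESeq2 called 1 lower and 1 higher. The 11 classes include the pool of all neurons, so cells of the neuron subtypes enter such counts again through the pool. Over all genes and the 11 classes edgeR called 1.11% of 143117 tests lower and 0.488% higher, and 8.33% and 6.59% were lower and higher at an unadjusted p under 0.05. DESeq2 called 3.96% lower and 1.15% higher of the 86377 tests to which it gave an adjusted p. The called gene was Epha10, a receptor without kinase activity, in retrohippocampal neurons, with 126 ± 12.2 CPM in Control and 195 ± 16.8 CPM in Sevoflurane (log2 fold change 0.63, SE 0.10, edgeR adjusted p = 0.0201). The list medians ran from -0.21 in oligodendrocyte precursors to 0.15 in granule neurons, beside 0.00 to 0.02 over all genes of a class.

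Of 44 signalling partners of Eph receptors and ephrins, 11 genes were called in at least 1 class, with 16 lower and 1 higher calls in 473 tests. With the list chosen after earlier results of these data were known, nothing is read from these counts. At an unadjusted p under 0.05 there were 91 lower and 16 higher, and DESeq2 called 34 lower and 2 higher, to be read beside the shares just given. Sipa1l1, a regulator of the GTPase Rap in spines, fell in pooled neurons (-0.36), granule (-0.28), CA1 (-0.53) and retrohippocampal neurons (-0.54), at edgeR adjusted p from 0.0108 to 0.0454. Dab1, the adaptor of reelin signalling, fell in pooled neurons, granule neurons and CA3, with 4491 ± 107 CPM in Control and 3677 ± 153 CPM in Sevoflurane in granule neurons (log2 fold change -0.29, SE 0.05, edgeR adjusted p = 0.0282). The Ras regulator Rasa1, which acts below Eph receptors, fell in granule neurons (-0.47, edgeR adjusted p = 0.00977). The focal adhesion kinase gene Ptk2 fell in pooled neurons (-0.29) and in retrohippocampal neurons (-0.39), and the phosphatase gene Ptpro fell in CA3 (-0.62, edgeR adjusted p = 0.0404).

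In glia the adaptor gene Anks1 fell in astrocytes (log2 fold change -0.74, SE 0.13, edgeR adjusted p = 0.00698), where Rgs3, which binds B-class ephrins, rose (log2 fold change 0.66, SE 0.15, edgeR adjusted p = 0.0324). The related adaptor gene Anks1b fell in oligodendrocyte precursors (log2 fold change -0.42, SE 0.09, edgeR adjusted p = 0.0340), and the Rac regulator Chn2 fell in oligodendrocytes (log2 fold change -0.56, SE 0.11, edgeR adjusted p = 0.0451). No partner was called in Lhx6 or Adarb2 interneurons or in microglia. The partner list's median log2 fold change was between -0.15 and -0.02 in all 11 classes, and with the length trend removed 4 calls lower over both lists were made in place of 16. Leaving out 1 library gave 3 to 10 calls lower and 0 to 1 higher over both lists, and without Sevoflurane 1 7 of the 18 calls over both lists held. Of those named here these were Sipa1l1 in pooled, CA1 and retrohippocampal neurons, Rasa1 in granule neurons, and Anks1 and Rgs3 in astrocytes, while Sipa1l1 in granule neurons and Epha10, Dab1, Ptk2, Ptpro, Anks1b and Chn2 were not called in that fit.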

How the data were processed

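Deposited 10x matrices of UMI counts were used, whose file headers record Cell Ranger 6.1.1 as the authors' counting software. The submitters' processing notes also list CASAVA 1.8 and Seurat. The build, annotation and strand setting are not given in the sources used here. Depth was 54426522 to 70741809 counts per library. The 10 genes and the 2 gene lists were chosen with earlier results of these data known.

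Cells with at least 500 UMIs, 300 genes and at most 20% mitochondrial counts were kept. The 397 to 762 cells per library with the highest Scrublet scores were removed as doublets. Cells were clustered without integration in scanpy 1.11.5 (2000 variable genes without the 10 genes, 30 components, 15 neighbours, resolution 1) and named from fixed markers, with limits set after clusters were seen. Free RNA was not removed. Counts were summed per library and class and tested with edgeR 4.0.16 in R 4.3.3 (quasi-likelihood, TMM, filterByExpr, Benjamini-Hochberg adjustment over all genes of the class, threshold 0.05). The scripts were tested on simulated data. Named list genes were those called with a mean of at least 20 CPM, at most 8 per class, and some of them are not reported here. Likeness used genes of at least 20 CPM in 1 class.

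Alternatives were DESeq2 1.42.0, no filter, a replicate block, each library left out, doublets kept, resolution 2, equal numbers of each subtype and removal of the trend with gene length. Leaving out clusters nearly absent from Control and using a single granule cluster were chosen after seeing the data.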

Additional observations from a re-analysis of the deposited data

Results flagged for a closer look

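For a pair of genes the groups stood apart in opposite directions in 2 classes, with every Sevoflurane library on one side of every Control library in each. Ephb2 stood lower in oligodendrocyte precursors, with 45.8, 45.6 and 36.6 CPM in Control and 28.6, 30.2 and 23 CPM in Sevoflurane (log2 fold change -0.6502), and higher in oligodendrocytes, with 14.4, 11.1 and 12.7 CPM and 34.5, 14.6 and 16 CPM (0.8158). The oligodendrocyte value was 0.27 without Sevoflurane 1 and 0.38 with doublets kept. Neither class passed the test on its own in the main fit (edgeR adjusted p = 0.281 and 0.311). Over 13 settings the edgeR or DESeq2 adjusted p of Ephb2 in oligodendrocytes ran from 0.0101 to 0.714. Efnb3 stood slightly lower in CA3, with 18.6, 16.6 and 19.1 CPM in Control and 15.8, 15.7 and 15.8 CPM in Sevoflurane (-0.1946), and higher in oligodendrocytes, with 121, 111 and 141 CPM and 223, 161 and 152 CPM (0.5408). Neither Efnb3 value passed in the main fit (edgeR adjusted p = 0.518 and 0.183). Over 13 settings the edgeR or DESeq2 adjusted p of Efnb3 in oligodendrocytes ran from 0.00451 to 0.553. Over all genes, 9.21% in oligodendrocyte precursors and 11.4% in CA3 had all Sevoflurane libraries lower, and 7.74% in oligodendrocytes had all higher, and the members were looked at in 11 classes. Both differences between classes were not tested, and both classes of each pair come from the same 6 libraries.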

How the results depend on the processing

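Counted over the alternatives were the single-gene log2 fold changes at an unadjusted p under 0.05, and the untested Efna5 and Epha5 values in neuron subtypes. Of these, 411 kept their direction and, if tested, their side of the threshold or, if untested, moved by less than the spread between libraries. In 40 a call was lost, in 23 a call was gained, 8 untested values moved by more than that spread and 6 values turned sign. Members above that unadjusted p were not counted. The number of genes called was 736 in pooled neurons, 554 in granule neurons, 195 in CA1, 89 in CA3, 172 in retrohippocampal neurons, 58 in Lhx6 interneurons, 47 in Adarb2 interneurons, 249 in astrocytes, 78 in oligodendrocytes, 83 in oligodendrocyte precursors and 31 in microglia. With DESeq2 it was 1492 in pooled neurons, 548 in CA1, 310 in CA3, 410 in retrohippocampal neurons, 172 in Lhx6 interneurons, 99 in Adarb2 interneurons, 146 in oligodendrocytes and 130 in oligodendrocyte precursors. With no filter on low counts it was 362 in CA1, 367 in CA3, 651 in retrohippocampal neurons, 395 in Lhx6 interneurons, 195 in Adarb2 interneurons, 622 in astrocytes, 449 in oligodendrocytes, 162 in oligodendrocyte precursors and 113 in microglia. With the trend with gene length removed it was 412 in pooled neurons, 273 in granule neurons, 89 in CA1, 0 in CA3, 59 in retrohippocampal neurons, 26 in Lhx6 interneurons, 17 in Adarb2 interneurons, 44 in oligodendrocytes and 10 in oligodendrocyte precursors. It was 159 in astrocytes and 28 in oligodendrocyte precursors with doublets kept, 259 in retrohippocampal neurons at a clustering resolution of 2, and 160 in granule neurons from cluster 19 alone, a setting chosen after seeing the data. With 1 library left out the counts ran over 43 to 444 in pooled neurons, 131 to 373 in granule neurons, 1 to 214 in CA1, 1 to 34 in CA3, 1 to 193 in retrohippocampal neurons, 2 to 43 in Lhx6 interneurons, 8 to 39 in Adarb2 interneurons, 57 to 376 in astrocytes, 5 to 87 in oligodendrocytes, 3 to 98 in oligodendrocyte precursors and 11 to 46 in microglia.

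Calls lower among the 10 genes numbered 1 in pooled neurons, 3 in the subtypes and 1 in glia. With DESeq2 they were 2, 5 and 3, and with the length trend removed 0, 0 and 0. With no filter the subtypes had 7 and glia 4 lower and 2 higher. Pooled neurons had 0 at a resolution of 2 and 0 with equal numbers of each subtype, and glia had 0 with doublets kept. With 1 library left out there were 0 to 1 lower and 0 to 1 higher in pooled neurons, 1 to 2 lower in subtypes, 0 to 2 lower in glia and 0 to 1 between neurons and oligodendrocytes. The 2 lists of other genes had 16 lower and 2 higher calls, and DESeq2 gave 35 lower, the removed length trend 4 lower, no filter 4 higher and doublets kept 1 higher, with 3 to 10 lower and 0 to 1 higher with 1 library left out. With the length trend removed Epha5 in pooled neurons was -0.20 and Efna5 -0.51, and Epha6 in granule neurons turned to 0.014, Epha6 in CA1 to 0.0375, Epha5 in CA3 to 0.0245 and Efna5 in Adarb2 interneurons to 0.10. Efna5 in Adarb2 interneurons ran from -0.1775 to 0.1991 with 1 library left out, above 0 without Control 2 and without Sevoflurane 2. The cause of these shifts was not tested.

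The shared replicate numbers were not taken as a pairing, since same-numbered libraries had correlations of -0.0954 to 0.0321 over 3 classes and 3 pairs. Of the 3 Control libraries, 1 in neurons, 0 in astrocytes and 0 in oligodendrocytes correlated best with its own number. With a replicate block, 161 in pooled neurons, 101 in granule neurons, 60 in CA1, 1 in CA3, 6 in Lhx6 interneurons, 21 in Adarb2 interneurons and 11 in oligodendrocyte precursors were called. With that block the 10 genes had 0 lower calls in pooled neurons, 1 in subtypes and 0 in glia, the 2 lists had 3 lower, Efna5 in pooled neurons was -0.67 and Epha5 -0.39. Depth limits the low genes most: Efna5 in oligodendrocyte precursors and Ephb2 in microglia did not pass the filter.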
